A study of Gallus gallus with 12 samples.

Results

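Transcript levels in the sperm reservoir of the hen were compared between 4 hens that had received sperm-free seminal fluid (SF) and 4 control hens. These 8 hens were chosen by the treatment given in their sample titles, among 12 White Leghorn hens of the series. The other 4 hens had been mated, and their arrays enter here only through the estimate of the spread that all groups share. The tissue was the utero-vaginal junction (UVJ), taken 24 h after treatment, and each array held total RNA of 1 hen. Per the methods, the SF was the supernatant of centrifuged semen, it was pooled by male over 4 males, and it was placed into the cloaca. Semen was extended with culture medium for examination, and whether the centrifuged semen held medium is not stated. Control hens had been left unmated and without insemination. No sham infusion is described for the control hens, so that the fluid, any medium in it and the infusion itself cannot be told apart. The age of the hens is not given in the sources used here. All arrays lay on a single slide, with controls in places 1 to 4 and SF-infused hens in places 9 to 12, so that treatment and slide position cannot be told apart either.

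The UVJ is the short segment between the shell gland, where the egg is calcified, and the vagina. Its mucosa folds into tubules lined by columnar cells, in which sperm stay fertile for weeks and from which they are released with each egg. Seminal fluid is the cell-free part of the ejaculate and carries ions, proteins and hormones. In mammals and insects, seminal fluid without sperm is known to alter gene activity in the female tract. The comparison of SF-infusion versus control asks which transcripts of the reservoir differ a day after such an infusion.

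Each array gave an intensity for 37374 features, of which 17619 stood for transcripts of Ensembl, 4361 for transcripts of RefSeq and 15394 for expressed sequence tags (ESTs) without a gene name. Levels are log2 intensities, given in the order of replicates 1 to 4 within each group, and differences are SF-infused minus control on the log2 scale with their standard error (SE) from limma. The array's random-sequence control lay at 3.85 to 3.91 in control and at 3.81 to 3.84 in SF-infused hens. Levels near 4 thus stand for little or no hybridisation. Smooth muscle genes such as MYL9 and MYH11 (14.90 and 14.53 as control means) and columnar epithelium genes such as EPCAM and KRT8 (14.44 and 14.36) were bright in both groups, as in a segment of the oviduct wall, and were chosen after their values had been seen. The mean of the columnar epithelium list was 12.70 to 12.81 in control and 12.58 to 12.90 in SF-infused hens.

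Hens of the same group differed widely from each other in genes of the shell gland. MEPE (ovocleidin-116, listed as LOC395256 on the array), a matrix protein that the shell gland adds to the eggshell, lay at 6.10, 14.62, 14.48 and 14.22 in control and at 14.31, 6.005, 6.20 and 6.32 in SF-infused hens. It was thus bright in 3 controls and 1 SF-infused hen and far dimmer in control 1 and SF-infused hens 2 to 4. GKN2, a gastrokine counted here with the shell matrix proteins, lay at 7.79, 14.59, 14.47 and 13.54 in control and at 13.84, 4.35, 5.21 and 10.89 in SF-infused hens, and BPIFB3 (LOC419289 on the array) lay at 10.61, 13.92, 15.09 and 12.96 in control and at 13.10, 6.56, 7.87 and 10.58 in SF-infused hens. The limma fit gave -4.14 (SE 2.41) for MEPE, -4.03 (SE 2.46) for GKN2 and -3.62 (SE 1.69) for BPIFB3, none of them past the unadjusted threshold. Over the 15 shell matrix genes measured, the mean level was 11.01, 12.63, 12.61 and 12.18 in control hens and 12.31, 10.17, 10.30 and 11.47 in SF-infused hens. Genes of stratified squamous epithelium, the layered lining of skin and body openings, had a mean over 34 genes of 9.75, 9.78, 9.51 and 10.66 in control hens and 10.29, 10.80, 11.02 and 10.44 in SF-infused hens. Control 4 lay inside the SF-infused range of the squamous list, and SF-infused hens 1 and 4 lay inside the control range of the shell matrix list. MEPE, GKN2 and BPIFB3, and of the squamous genes TP63, KRT5, VGLL1 and CALML3, were chosen after their values had been seen. In such bulk tissue, fewer cells of a type and less RNA per cell cannot be told apart.

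**Figure D1:**
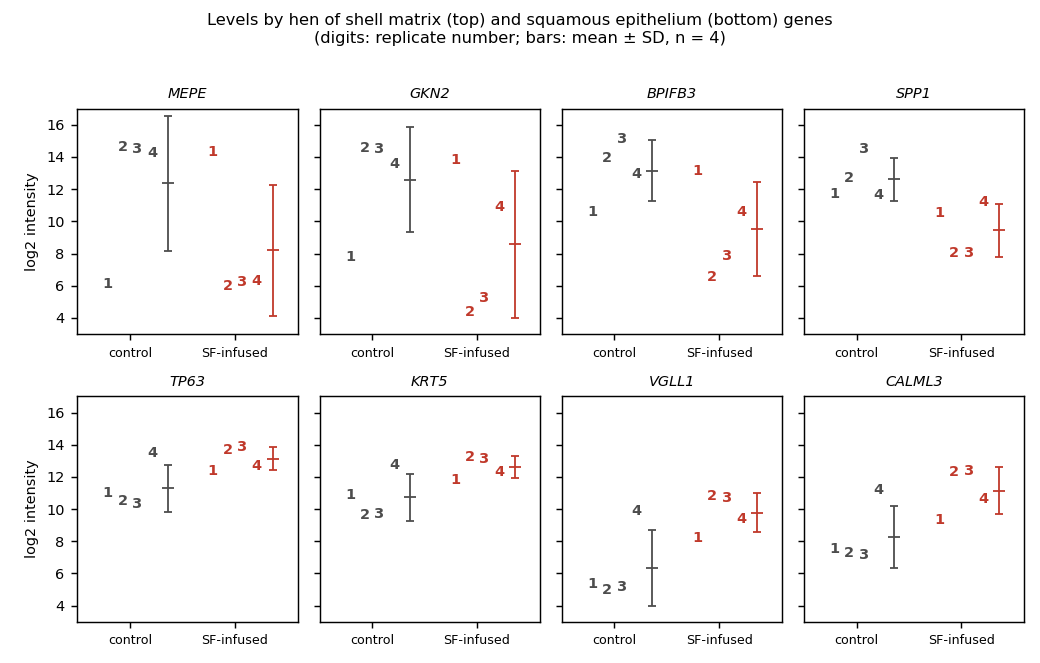
Log2 intensity (y axis) of 4 shell matrix genes (top row) and 4 squamous epithelium genes (bottom row) in each of the 4 control and 4 SF-infused hens; digits are replicate numbers and bars show mean ± SD. MEPE lies near 14 in controls 2 to 4 and SF-infused hen 1 and near 6 in the other 4 hens, and control 4 lies within the SF-infused hens for the squamous genes.

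With limma and Benjamini-Hochberg adjustment over all 37374 features, 0 (0%) passed in SF-infusion versus control, and the smallest adjusted p was 0.735. The unadjusted p was under 0.05 for 2417 features (6.47%), 1551 of them higher (4.15%) and 866 lower (2.32%) in SF-infused hens, and these are called past the unadjusted threshold in what follows. Of the 37374 features, 1437 (3.84%) had SF-infused and control hens that did not overlap, and 933 were both separate and past the unadjusted threshold. With 1 feature for each of 10908 characterised genes, 625 (5.73%) were past it, 335 higher (3.07%) and 290 lower (2.66%). The difference lay above 0 in 51.7% of all features. All group counts given below are to be read against these shares. Of the 2417 features, 713 stayed past the threshold whichever of the 8 arrays was left out. The count went from 1502 without SF-infused hen 3 to 3505 without SF-infused hen 1. It was 1282 without control 3 and SF-infused hen 3, the hens at the ends of the squamous level, a setting added after seeing the data. These hens are the extremes in the direction of the squamous difference, so that leaving them out lowers that difference by construction. No other pair was left out. The counts without these hens, here and below, therefore do not measure how far the results depend on the squamous level.

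Features on the higher side were dimmer than those on the lower side, with median control levels of 8.28 and 9.62 against 10.08 over all features. ESTs contributed more than their share of the higher side, with 806 higher and 298 lower (7.17% of the ESTs), whereas Ensembl transcripts gave 611 and 457 and RefSeq transcripts 134 and 111. The difference exceeded 1 log2 unit in 387 of the 2417 features. In characterised genes with several features whose brightest one was past the threshold, 86 of the 94 other features had the same sign. Of these 86, 43 also passed, and 0 of the 94 passed with the opposite sign. All features of a gene were read from the same RNA of the same hens, so that their agreement is no replication of the calls.

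**Figure D2:**
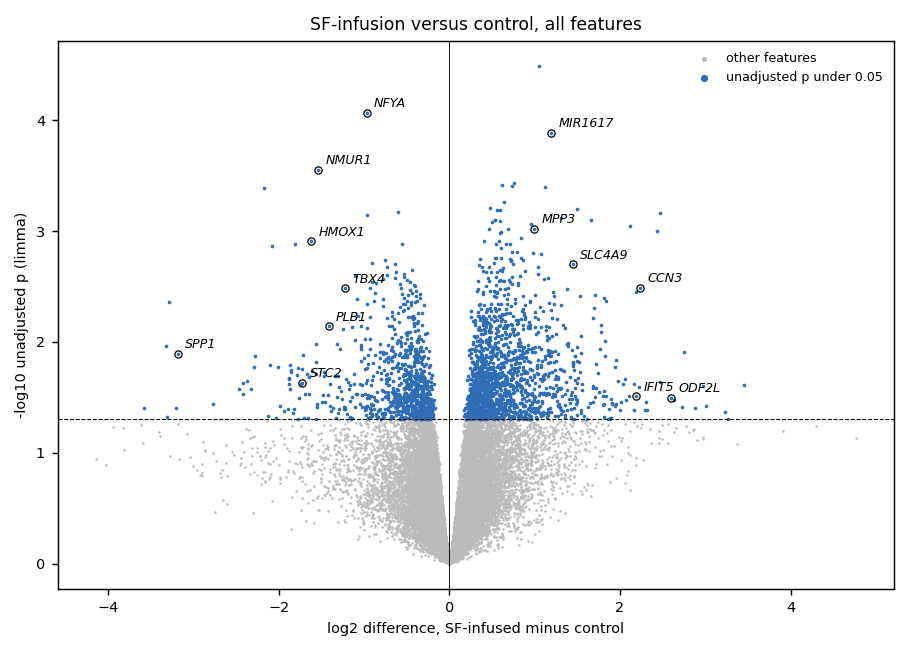
Difference between SF-infused and control hens on the log2 scale (x axis) against -log10 of the unadjusted limma p (y axis) for all 37374 features, with the unadjusted threshold as a dashed line and 13 genes circled. NFYA and MIR1617 lie near the top on the lower and the higher side, and no feature passed after adjustment.

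NFYA had the smallest unadjusted p of all characterised genes. NFYA is the regulatory subunit of NF-Y, a trimeric factor that binds the CCAAT box in the promoters of many housekeeping, cell cycle and secretory genes. It lay at 10.89, 11.04, 11.46 and 10.72 in control and at 10.34, 9.87, 9.96 and 10.07 in SF-infused hens, with all SF-infused hens below all controls, a difference of -0.97 (SE 0.16) and an unadjusted limma p of 8.59e-05. The other subunits were closer to 0. NFYB was at 12.19 ± 0.04 (SD, n = 4) in controls against 12.29 ± 0.02 (SD, n = 4) after SF-infusion, a difference of 0.10 (SE 0.08), and NFYC at 13.85 ± 0.17 (SD, n = 4) in controls against 13.74 ± 0.14 (SD, n = 4) after SF-infusion, a difference of -0.10 (SE 0.12). For NFYB the SF-infused hens lay above all controls by a narrow margin, and of its other 3 features, at 0.09, 0.12 and 0.25, the last was past the unadjusted threshold. NFYA stayed past the threshold whichever array was left out.

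Next in order on the lower side came receptor and signalling genes. NMUR1, the receptor for the smooth muscle-contracting peptide neuromedin U, lay at 6.87, 7.61, 8.46 and 7.78 in control and at 6.33, 6.12, 5.85 and 6.27 in SF-infused hens, a difference of -1.54 (SE 0.29) with an unadjusted limma p of 0.000279. SF-infused hens were tightly grouped near 6 while controls ranged over more than a log2 unit. HMOX1, the enzyme that splits haem into iron, biliverdin and carbon monoxide and is induced by oxidative stress, lay at 12.62, 12.78, 12.93 and 12.68 in control and at 12.11, 11.13, 10.63 and 10.66 in SF-infused hens, a difference of -1.62 (SE 0.38), which is a 3.07-fold lower level. A pair of further HMOX1 features were at -2.17 and -1.81. PRKAR2B, a regulatory subunit of the cAMP-dependent kinase, differed by -0.75 (SE 0.18), and the neuropeptide PACAP gene ADCYAP1 by -0.62 (SE 0.16). For ADCYAP1 the other 3 features were at 0.03, 0.02 and -0.18, so that its difference rests on 1 feature. The lymphocyte GTPase RHOH was at -0.73 (SE 0.19). All of these genes had separate groups and stayed past the threshold whichever array was left out.

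Among lower genes with separate groups, the largest differences were those of SPP1, STC2, HMOX1, NMUR1 and PLB1. SPP1 (osteopontin), which binds calcium in bone and eggshell, lay at 11.67, 12.67, 14.49 and 11.65 in control and at 10.52, 8.01, 8.03 and 11.18 in SF-infused hens, a difference of -3.19 (SE 1.07). The separation of the groups was narrow, with control 4 at 11.65 above SF-infused hen 4 at 11.18. STC2, a secreted regulator of calcium and phosphate, was at -1.72 (SE 0.66) for the feature with separate groups, and its brighter feature at -1.82 had overlapping groups. The phospholipase PLB1 differed by -1.41 (SE 0.43), the mitochondrial folate enzyme ALDH1L2 by -1.40 (SE 0.53), the rRNA methyltransferase ZCCHC4 by -1.37 (SE 0.58) and the lysosomal galactosylceramidase GALC by -1.16 (SE 0.45). TBX4, a T-box factor of hindlimb and lung, lay at 8.61, 7.55, 8.23 and 8.21 in control and at 6.79, 6.64, 6.97 and 7.29 in SF-infused hens, a difference of -1.23 (SE 0.33). Further TBX4 features were at -1.10, -0.56 and 0.22, of which the first and the second passed and the last, of opposite sign, did not. FOXO3, a transcription factor of stress resistance, was at -1.04 (SE 0.36), the muscle integrin partner melusin (ITGB1BP2) at -0.99 (SE 0.36) and the thyroid hormone receptor THRB at -0.98 (SE 0.43), whose other feature at -0.78 was not past the threshold. SF-infused hen 4 was the lowest hen for FOXO3, at 8.78. STC2 lost its call without control 3 or SF-infused hen 3, ALDH1L2 without either of these or SF-infused hen 2, GALC without control 3 or SF-infused hens 2 or 4, ZCCHC4 without controls 1, 2 or 4 or SF-infused hens 3 or 4, and THRB without controls 1, 2 or 3 or SF-infused hens 3 or 4.

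On the higher side, CCN3 (NOV on the array), a matricellular growth regulator, lay at 9.43, 9.27, 8.33 and 10.56 in control and at 10.63, 11.82, 12.91 and 11.18 in SF-infused hens, a difference of 2.24 (SE 0.60) or 4.72-fold, and control 4 at 10.56 came close to SF-infused hen 1 at 10.63. SLC4A9, an anion exchanger of transporting epithelia, lay at 7.93, 8.37, 8.17 and 8.95 in control and at 9.67, 10.69, 9.31 and 9.54 in SF-infused hens, a difference of 1.45 (SE 0.36). BEGAIN, a scaffold protein of brain synapses, was at 1.72 (SE 0.60) and the membrane scaffold MPP3 lay at 7.35, 8.29, 7.71 and 8.50 in control and at 8.88, 8.83, 9.19 and 8.95 in SF-infused hens, a difference of 1.00 (SE 0.22) with a spread of 0.16 (SD, n = 4) among SF-infused hens. These 4 genes stayed past the threshold in every leave-one-out fit.

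Less steady in the leave-one-out fits were ODF2L, IFIT5, PNOC, CDH19, PCLO and ADCY8. ODF2L, a centriole-associated protein, lay at 6.57, 3.79, 3.66 and 6.72 in control and at 6.98, 8.48, 8.52 and 7.15 in SF-infused hens. Controls 2 and 3 were below the random control, and the difference of 2.60 (SE 1.06) lost its call without either of them or SF-infused hens 2 or 3. PNOC, which encodes the opioid-like peptide nociceptin, lay at 7.48, 7.30, 7.45 and 8.01 in control and at 8.45, 9.47, 12.27 and 8.71 in SF-infused hens, a difference of 2.17 (SE 0.94) in which SF-infused hen 3 stood far above the rest, and it lost its call without any 1 control or without SF-infused hens 2 or 3. A further PNOC feature was at 0.45, not past the threshold. The synaptic vesicle scaffold piccolo (PCLO, ACZ on the array) was at 1.34 (SE 0.48), with further features at 0.88 and 1.22, and lost its call without control 2 or SF-infused hen 2. The adenylate cyclase ADCY8 at 1.31 (SE 0.57) lost it without controls 2 or 3 or any 1 SF-infused hen, and cadherin CDH19 at 1.95 (SE 0.82), whose mean control level of 3.74 was below the random control, without controls 2 or 3 or SF-infused hens 2 or 3.

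Smaller differences with little spread made up the rest of the genes with the smallest p. ZAR1L, an egg RNA-binding protein, lay at 7.96, 8.09, 7.92 and 8.17 in control and at 8.25, 8.81, 9.11 and 8.86 in SF-infused hens, a difference of 0.72 (SE 0.18). The orphan receptor GPR176, known from the brain's clock in mice, was at 0.53 (SE 0.13) and the sialyltransferase ST6GALNAC1, which caps mucin sugars, at 0.82 (SE 0.21). ETFA, which passes electrons from fatty acid oxidation to the respiratory chain, lay at 8.94, 8.89, 9.02 and 8.94 in control and at 9.21, 9.21, 9.32 and 9.42 in SF-infused hens, a difference of 0.34 (SE 0.09) or 1.27-fold. CCDC122 and SPO11 were at 0.84 (SE 0.20) and 0.61 (SE 0.15), but their control levels of 3.62 and 3.98 were close to the random control. None of these lost its call with any array left out.

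**Figure D3:**
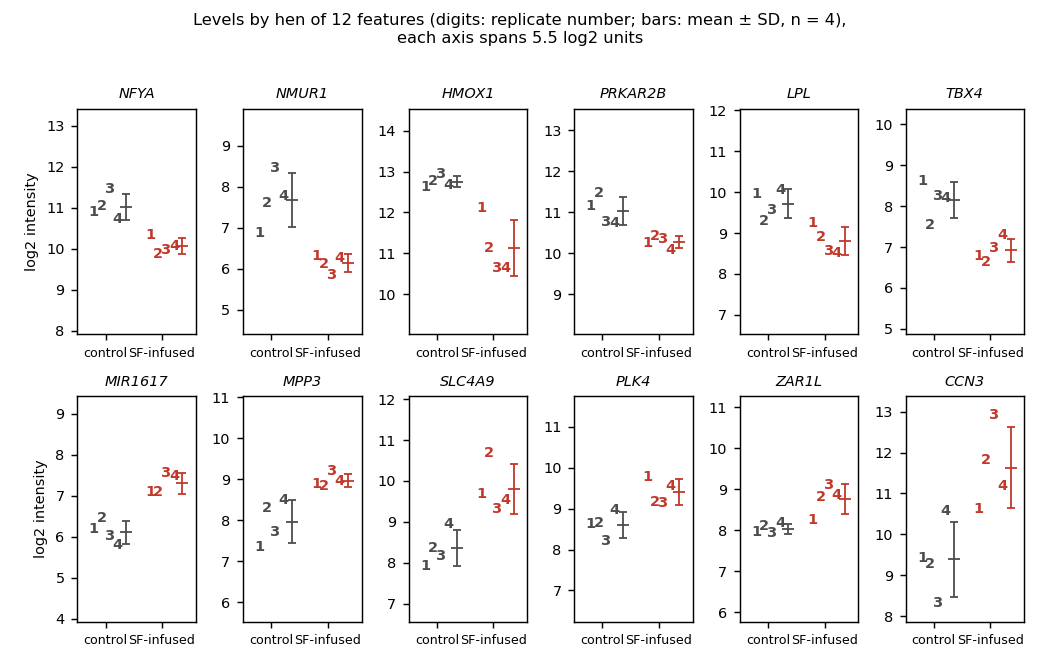
Log2 intensity (y axis, 5.5 units in every panel) of 6 features that lay lower (top row) and 6 that lay higher (bottom row) in the 4 SF-infused than in the 4 control hens; digits are replicate numbers and bars show mean ± SD. The groups do not overlap in any panel. Margins are narrow in LPL (control 2 at 9.29, SF-infused hen 1 at 9.25), CCN3 (control 4 at 10.56, SF-infused hen 1 at 10.63) and ZAR1L (control 4 at 8.17, SF-infused hen 1 at 8.25).

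Among small RNA genes, MIR1617 stood out. This microRNA precursor, a chicken sequence without a role known here, lay at 6.19, 6.46, 6.03 and 5.79 in control and at 7.08, 7.10, 7.56 and 7.49 in SF-infused hens, a difference of 1.19 (SE 0.21) with an unadjusted limma p of 0.00013, in all leave-one-out fits past the threshold. The next were MIR216C at 0.45 (SE 0.12) and mir-466 at 0.53 (SE 0.14), both at mean levels under the random control, and a further MIR216C feature was at 0.01. Of 382 microRNA features 22 were higher and 13 lower past the threshold, with a median difference of 0.03. Small nucleolar RNAs, which guide the modification of ribosomal RNA, gave 14 higher and 6 lower of 148 features with a median of 0.07. SNORA22 lay at 6.32, 6.02, 6.01 and 6.15 in control and at 6.77, 6.75, 6.98 and 6.33 in SF-infused hens, a difference of 0.58 (SE 0.14), and SNORA15 was at 0.59 (SE 0.15) with all SF-infused hens above all controls. SNORA66 was at 0.48 (SE 0.14), but its mean control level of 3.91 was close to the random control. Its other feature, with a mean control level of 7.53, was at 0.19 and did not pass.

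Groups of genes were then described, each by the number of members past the unadjusted threshold beside the shares of 3.07% higher and 2.66% lower among all characterised genes. The lists were not tested as sets. Lists and members were chosen with earlier results of these data known, so that counts above these shares lend the groups no support. In secretory pathway genes, 0 of 114 members were past the threshold on the higher side and 16 on the lower side, and 105 lay below 0 (median -0.18). This pathway carries proteins into the endoplasmic reticulum, folds them there and ships them through the Golgi, and it is large in secretory epithelium. The lower members spanned all its steps, with 3 of 34 for translocation, 8 of 39 for folding and the unfolded protein response and 5 of 41 for transport to and from the Golgi. SEL1L, the adaptor that sends misfolded proteins to degradation, lay at 11.81, 11.87, 11.83 and 11.78 in control and at 11.71, 11.45, 11.47 and 11.14 in SF-infused hens, a difference of -0.38 (SE 0.11). The fusion protein YKT6 lay at 9.82, 9.87, 9.99 and 9.88 in control and at 9.45, 9.58, 9.58 and 9.37 in SF-infused hens, a difference of -0.40 (SE 0.13), and the Golgi membrane protein YIPF5 was at -0.38 (SE 0.13). All 3 had separate groups and kept their calls. The differences were small, and the mean level of the list was 12.50, 12.46, 12.45 and 12.36 in control hens and 12.42, 12.15, 12.22 and 12.18 in SF-infused hens, so that SF-infused hen 1 lay among the controls. The number on the lower side ranged from 4 without SF-infused hen 2 to 31 in leave-one-out fits, and was 5 without control 3 and SF-infused hen 3.

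Shell-forming genes were mostly on the lower side by value. Those past the threshold on that side were small in number but above the share of 2.66%. Of the 15 shell matrix genes, SPP1 and the calcium-binding NUCB2 (-0.23 (SE 0.10)) were past it on the lower side and GKN1, close to the random control, on the higher side (0.27 (SE 0.10), lost without control 2 or SF-infused hen 1), while 11 lay below 0 (median -0.32). NUCB2 kept its call only in the fit without SF-infused hen 1. Of 55 carriers of shell minerals, which move calcium, bicarbonate, sodium, chloride and protons, 3 were higher and 6 lower (median -0.16). The higher side included the anion exchangers SLC4A9, given above, and SLC4A3 at 0.47 (SE 0.17), which lost its call without control 3 or SF-infused hen 4. On the lower side, 0 of the 6 kept their calls in every leave-one-out fit, and the number lower was 0 without control 2, control 3 or SF-infused hen 2. Carbonic anhydrase CA2, the enzyme that supplies bicarbonate for the shell, lay at 11.79, 13.28, 13.42 and 11.88 in control and at 12.70, 11.77, 11.58 and 12.39 in SF-infused hens and was not past the threshold. CA2 was chosen here after its values had been seen.

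Genes of stratified squamous epithelium were mostly on the higher side. Of 34 measured members, 10 were higher and 1 was lower, and the median was 0.51. PROM2, a protein of epithelial protrusions, lay at 7.65, 7.55, 7.34 and 8.37 in control and at 8.15, 8.86, 9.52 and 9.04 in SF-infused hens, a difference of 1.17 (SE 0.33), and the corneal keratin KRT12 was at 1.27 (SE 0.43). Both kept their calls in every leave-one-out fit although control 4 overlapped the SF-infused hens. KRT10, a keratin of cornifying layers, went the other way at -0.65 (SE 0.20) with separate groups, but its second feature at 0.56 had the opposite sign. The basal-layer factor TP63 lay at 10.97, 10.50, 10.31 and 13.46 in control and at 12.38, 13.67, 13.87 and 12.67 in SF-infused hens, the basal keratin KRT5 at 10.85, 9.64, 9.70 and 12.72 in control and at 11.78, 13.25, 13.14 and 12.31 in SF-infused hens, the cofactor VGLL1 at 5.34, 4.95, 5.18 and 9.89 in control and at 8.23, 10.84, 10.67 and 9.39 in SF-infused hens and the calmodulin-like CALML3 (CCM1 on the array) at 7.51, 7.28, 7.15 and 11.16 in control and at 9.33, 12.33, 12.36 and 10.61 in SF-infused hens. In these 4 genes control 4 stood apart from controls 1 to 3 and lay within the SF-infused range, and SF-infused hens 2 and 3 were the highest. The number higher went from 3 without control 1, control 3 or SF-infused hen 3 to 12 without control 4, and was 2 without control 3 and SF-infused hen 3. Among features at or above the median signal, 2 of 18 members were higher and the median was 0.14. The part that the squamous and shell matrix levels of the hens had in the results of other groups was not tested.

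Cilia genes gave 17 higher and 1 lower of 91 members, and 83 members lay above 0 (median 0.27). Ciliated cells line the oviduct and move fluid over the mucosa. GAS8, of the complex that regulates dynein motors along the axoneme, lay at 11.76, 11.66, 11.52 and 11.71 in control and at 11.93, 11.89, 12.003 and 12.20 in SF-infused hens, a difference of 0.34 (SE 0.11). The kinesin KIF7, which works at the tip of the primary cilium, was at 0.38 (SE 0.12) and TTC21B, of the transport machinery inside cilia, at 0.37 (SE 0.12), and all 3 kept their calls in every leave-one-out fit. The mean level of the list was 11.87, 11.46, 11.08 and 11.52 in control hens and 11.80, 11.59, 11.86 and 11.85 in SF-infused hens. Control 1 was thus the highest hen of all and control 3 the lowest, and the groups overlapped at this level. The number of members on the higher side was 4 without control 3 and up to 36 with another array left out, and 1 without control 3 and SF-infused hen 3.

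**Figure D4:**
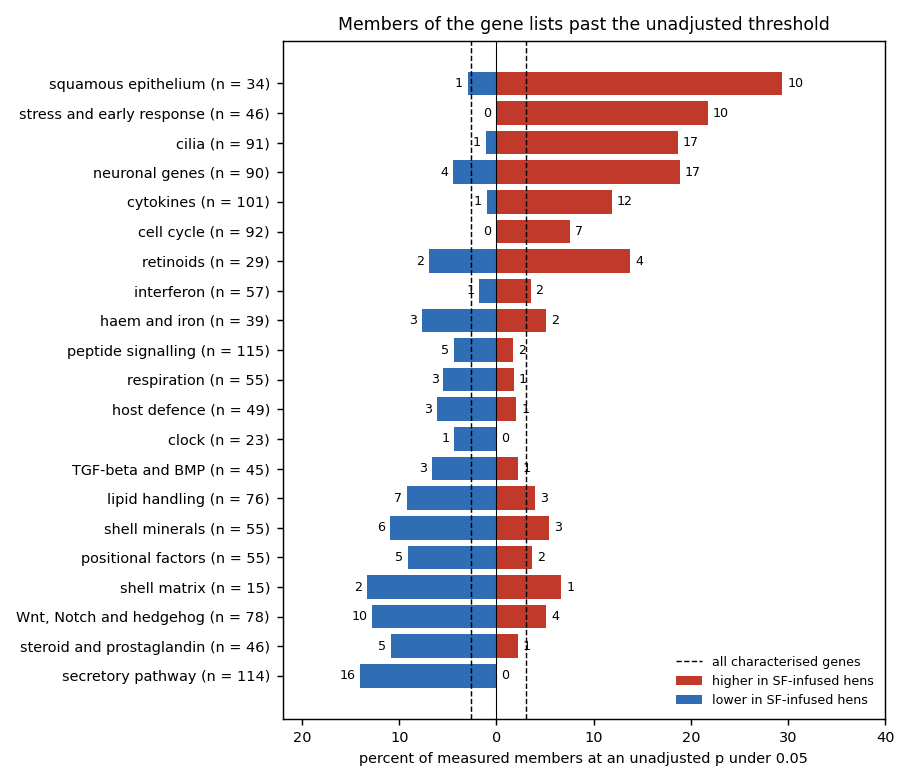
Percent of the measured members of 21 gene lists (y axis, with the number measured) that were past the unadjusted threshold, higher to the right and lower to the left; numbers at the bars count members and dashed lines mark 3.07% and 2.66% of all characterised genes. Squamous epithelium, stress and early response, neuronal and cilia genes extend farthest to the higher side and secretory pathway genes farthest to the lower side. The lists were chosen with earlier results of these data known.

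Immune genes were described in 3 groups. In the interferon list, the count depended on the fit. With the spread of all 12 arrays, 2 of 57 members were higher and 1 lower, whereas in the fit of only the 8 arrays compared, in which 8.02% of all features were past the threshold, 27 were higher and 1 lower, and with array weights 19 and 1. By value 47 members lay above 0 and 9 had SF-infused hens above all controls, and of the 28 effector genes 27 lay above 0 (median 0.69). Over all features, 51.7% lay above 0 and 3.84% had separate groups in either direction. IFIT5, a sensor of viral RNA, lay at 8.89, 10.003, 10.19 and 11.91 in control and at 12.12, 12.26, 12.73 and 12.65 in SF-infused hens, a difference of 2.19 (SE 0.89), and the helicase ZNFX1 was at 0.88 (SE 0.37). IFIT5 lost its call without controls 1, 2 or 3 or SF-infused hens 3 or 4, and ZNFX1 without controls 1, 2 or 3 or any 1 SF-infused hen. The mean level of the effectors was 10.43, 10.59, 10.63 and 11.55 in control hens and 11.40, 11.55, 11.81 and 11.74 in SF-infused hens, in which control 4 equalled SF-infused hen 2 and exceeded SF-infused hen 1. The number of members on the higher side was 0 without control 1, 2 or 3 or SF-infused hen 4 and 12 without control 4. Interferon beta (IFNB) itself was lower at -0.49 (SE 0.21), which kept its call only without SF-infused hens 1 or 3.

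Of 101 cytokines, chemokines and their receptors, 12 were higher and 1 lower (median 0.19). The higher ones comprised 8 of 42 ligands and 4 of 59 receptors. Among features at or above the 25th percentile of signal, 59 members of the list were left, with 7 higher and 1 lower (median 0.25). Among features at or above the median signal, 22 members were left, with 0 higher and 0 lower (median 0.17). IL19, an epithelial cytokine of the interleukin-10 family, lay at 5.12, 5.69, 5.72 and 6.02 in control and at 6.47, 8.02, 6.79 and 6.02 in SF-infused hens, a difference of 1.19 (SE 0.40), with control 4 and SF-infused hen 4 both at 6.02. CD40LG, the T cell ligand that activates B cells, was at 0.32 (SE 0.10) with separate groups. The receptor-like IL17RD lay at 7.10, 6.68, 7.04 and 7.45 in control and at 7.84, 8.18, 8.79 and 7.93 in SF-infused hens, a difference of 1.12 (SE 0.44), and lost its call without controls 2 or 3 or SF-infused hens 2 or 3. The death receptor adaptor FADD was the lower member, at -0.71 (SE 0.21). IL19, CD40LG and FADD kept their calls in every leave-one-out fit. The number of higher members went from 3 without SF-infused hen 2 to 17 and was 2 without control 3 and SF-infused hen 3.

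In host defence genes 1 of 49 members was higher and 3 were lower. The liver-expressed antimicrobial peptide LEAP2 lay at 6.45, 6.50, 6.61 and 6.23 in control and at 6.18, 5.87, 5.44 and 5.98 in SF-infused hens, a difference of -0.57 (SE 0.15), and the beta-defensin AvBD6 (GAL6 on the array) was at -0.43 (SE 0.12). Both had separate groups and kept their calls. The adaptor of Toll-like receptors TIRAP was the higher one at 0.42 (SE 0.15) and lost its call without control 2 or SF-infused hen 3. T lymphocyte markers gave 0 higher and 2 lower of 20, although 15 lay above 0 (median 0.34), with mean levels of 7.69 to 8.45 in control and 8.02 to 8.40 in SF-infused hens, and the lower ones were RHOH and TCF7, the latter at -1.29 (SE 0.50) and lost without controls 2 or 3 or SF-infused hens 2 or 3. Macrophage and heterophil markers gave 0 of 16 past the threshold, with CSF3R at -0.28 (SE 0.17) having the smallest p, and B lymphocyte markers 1 of 14, the kinase TEC at -0.64 (SE 0.27), lost without controls 2 or 3 or SF-infused hens 2 or 3.

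Neuronal and synaptic genes had 17 higher and 4 lower of 90 members (median 0.24). The UVJ is innervated and coordinates contraction with egg passage, yet most of these genes were dim on the array. The potassium channel KCNC2 lay at 5.42, 4.91, 5.19 and 5.66 in control and at 5.71, 5.91, 5.95 and 6.32 in SF-infused hens, a difference of 0.68 (SE 0.19) with separate groups, and the acetylcholine receptor subunit CHRNA9 was at 0.86 (SE 0.26) with overlapping groups. Both and 8 other members kept their calls in every leave-one-out fit. Mean levels of the list were 6.99, 6.78, 6.62 and 7.06 in control hens and 6.99, 7.42, 7.09 and 7.07 in SF-infused hens, with SF-infused hen 2 the highest and control 3 the lowest. The number higher went from 9 without SF-infused hen 2 to 19 and was 5 without control 3 and SF-infused hen 3. Peptide hormones, neuropeptides and their receptors gave 2 higher and 5 lower of 115, and 10 and 7 in the fit of only the 8 arrays compared. Besides NMUR1, the glucagon receptor GCGR (LOC425670 on the array) was on the lower side, at 6.70, 6.84, 7.02 and 6.57 in control and at 6.47, 6.32, 6.16 and 5.97 in SF-infused hens, a difference of -0.56 (SE 0.15) with separate groups that kept its call. The growth factor gene BDNF lay at 8.09, 7.08, 6.29 and 8.43 in control and at 8.21, 9.49, 10.27 and 9.23 in SF-infused hens, a difference of 1.83 (SE 0.58) that kept its call although control 4 overlapped SF-infused hen 1, and was chosen after its values had been seen.

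Stress and early response genes, many of which follow stretch, injury or hormones within minutes to hours, had 10 higher and 0 lower of 46 members (median 0.21). CCN3 led them. The nuclear receptor NR4A2 was at 0.51 (SE 0.18) and the growth regulator MYC lay at 10.35, 10.65, 11.15 and 10.86 in control and at 10.97, 11.58, 11.29 and 11.45 in SF-infused hens, a difference of 0.57 (SE 0.22), with overlapping groups in both. NR4A2 lost its call without control 3 or SF-infused hens 2 or 3, and MYC without controls 1 or 2 or SF-infused hens 2 or 4. The number higher was 1 without SF-infused hen 2 and up to 12 otherwise, and 3 without control 3 and SF-infused hen 3. Genes of haem, iron and the response to oxidants were divided, with 2 higher and 3 lower of 39 (median -0.01). Apart from HMOX1, the haem exporter FLVCR1 lay at 9.41, 9.64, 9.93 and 9.13 in control and at 9.16, 8.79, 8.43 and 8.52 in SF-infused hens, a difference of -0.80 (SE 0.30), and the small Maf factor MAFF was on the higher side at 0.85 (SE 0.33). Neither kept its call in every leave-one-out fit, FLVCR1 losing it without control 3 or SF-infused hens 3 or 4 and MAFF without controls 1 or 2 or SF-infused hens 2 or 3.

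Cell cycle genes gave 7 higher and 0 lower of 92 members (median 0.18). PLK4, the kinase that starts the duplication of centrioles, lay at 8.62, 8.64, 8.20 and 8.96 in control and at 9.78, 9.16, 9.14 and 9.56 in SF-infused hens, a difference of 0.81 (SE 0.21) that held in every leave-one-out fit. The ubiquitin-conjugating enzyme UBE2T was at 0.52 (SE 0.18), which lost its call without control 3 or SF-infused hen 3, and cyclin CCNE2 at 0.87 (SE 0.33), which lost it without control 2 or SF-infused hen 4. The mean level of the list was 8.79, 8.80, 8.64 and 8.75 in control hens and 9.18, 9.07, 8.63 and 9.03 in SF-infused hens, so that SF-infused hen 3 lay with the lowest control while the other SF-infused hens lay above all controls. The number higher went from 3 without SF-infused hen 2 to 8, and was 14 in the fit of only the 8 arrays compared. Respiratory chain genes had 1 higher and 3 lower of 55, but 48 members lay below 0 (median -0.18). The higher one was ETFA. The ATP synthase subunit ATP5J lay at 8.18, 8.06, 8.02 and 7.78 in control and at 7.46, 7.70, 7.29 and 7.50 in SF-infused hens, a difference of -0.52 (SE 0.21), and cytochrome c (CYCS) was at -0.49 (SE 0.21). ATP5J lost its call without controls 1, 2 or 3 or SF-infused hens 1 or 3, and CYCS without controls 1, 2 or 3 or SF-infused hens 2 or 3. Clock genes had 1 of 23 past the threshold, the kinase SIK1 at -0.69 (SE 0.25), which lost its call without control 3 or SF-infused hen 4.

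Developmental signals lay on both sides. Of 78 genes of the Wnt, Notch and hedgehog pathways, 4 were higher and 10 lower (median -0.06). LRP5, a co-receptor for Wnt ligands, lay at 11.55, 11.25, 11.13 and 11.32 in control and at 10.89, 10.997, 10.97 and 10.90 in SF-infused hens, a difference of -0.37 (SE 0.12), and HEYL, a transcriptional target of Notch, lay at 9.77, 10.06, 9.89 and 8.66 in control and at 8.998, 7.63, 7.46 and 8.03 in SF-infused hens, a difference of -1.56 (SE 0.51). Both kept their calls in every leave-one-out fit, with overlapping groups for HEYL. Of the 10 on the lower side, 3 were left without SF-infused hen 2 and 2 without control 3 and SF-infused hen 3. In TGF-beta and BMP signalling 1 was higher and 3 were lower of 45, with the BMP-binding protein BMPER at 1.11 (SE 0.44), the co-receptor RGMB at -0.29 (SE 0.13) and the receptor BMPR2 at -0.35 (SE 0.16), and 0 of them kept their calls with every array left out. Of 55 positional factors, which set the regions of the body and its tubes, 2 were higher and 5 lower (median -0.11). With TBX4 the lower ones included HOXB9, at 7.54, 7.06, 7.49 and 7.23 in control and at 6.78, 5.96, 6.37 and 6.81 in SF-infused hens, a difference of -0.85 (SE 0.31) that was lost without SF-infused hen 2. SIM2 was on the higher side at 1.07 (SE 0.38) and lost its call without control 3, where the list had 2 members lower and 0 higher. Its groups overlapped, and its mean control level of 4.33 was close to the random control, with control 3 at 3.45 below it.

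Lipid genes gave 3 higher and 7 lower of 76 (median -0.11). LPL, the lipase that releases fatty acids from lipoproteins at the vessel wall, lay at 9.96, 9.29, 9.57 and 10.05 in control and at 9.25, 8.91, 8.57 and 8.52 in SF-infused hens, a difference of -0.90 (SE 0.24). The sterol exporter ABCG8 was at -0.38 (SE 0.12), and PLB1 is given above. All 3 had separate groups and kept their calls. The separation was narrow for LPL and for PLB1, in which control 4 at 6.077 lay just above SF-infused hen 1 at 6.071. PPARGC1A, a coactivator of mitochondrial genes, lay at 11.68, 10.95, 11.20 and 10.23 in control and at 10.31, 8.99, 9.56 and 8.34 in SF-infused hens, a difference of -1.71 (SE 0.58) that kept its call although control 4 overlapped SF-infused hen 1, and was chosen after its values had been seen. The number of lipid genes lower was 4 without control 3 and up to 11 with another array left out. Of 46 genes of steroid, thyroid and prostaglandin signalling, 1 was higher and 5 were lower (median -0.07). A pair of deiodinases, which activate or break down thyroid hormone, lay on opposite sides. DIO1 lay at 9.18, 9.17, 9.07 and 9.28 in control and at 9.68, 10.27, 9.79 and 9.41 in SF-infused hens, a difference of 0.61 (SE 0.18) with separate groups that kept its call, and its other feature was at 0.47. DIO2 lay at 10.54, 10.57, 11.74 and 9.44 in control and at 9.65, 8.05, 7.53 and 10.13 in SF-infused hens, a difference of -1.73 (SE 0.62) with overlapping groups, lost without control 3 or SF-infused hens 2 or 3. The bile acid and steroid reductase AKR1D1 was at -0.93 (SE 0.30), which kept its call. The number lower was 1 without control 3 or SF-infused hen 3. Receptors for progesterone and oestrogen, PGR and ESR1, were at -0.02 (SE 0.15) and -0.24 (SE 0.36), neither past the threshold, and were chosen here after their values had been seen. Of 29 retinoid genes 4 were higher and 2 lower. The retinol-binding protein RBP5 lay at 8.53, 8.33, 8.33 and 8.70 in control and at 8.95, 9.51, 9.01 and 8.98 in SF-infused hens, a difference of 0.64 (SE 0.23) that was lost without SF-infused hen 2, and the dehydrogenase ALDH8A1 was at -0.41 (SE 0.15), lost without control 3 or SF-infused hen 3. The secreted chemoattractant RARRES2 was at 0.37 (SE 0.15), and SF-infused hen 1 at 12.71 lay with the controls. RARRES2 lost its call without controls 1, 2 or 3 or SF-infused hens 2, 3 or 4. The number of retinoid genes higher was 0 without SF-infused hen 2 and the number lower was 0 without SF-infused hen 3.

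Markers of other tissues were looked at as levels beside these results. Smooth muscle, erythrocyte and fibroblast markers had 0 members past the threshold of 15, 14 and 20, the smallest p being those of PLN at -0.25 (SE 0.13), HBZ at -0.30 (SE 0.15) and POSTN at 1.34 (SE 0.68). By value 10 of the 15 smooth muscle markers lay above 0 (median 0.04), 10 of the 14 erythrocyte markers below it (median -0.11) and 19 of the 20 fibroblast markers above it (median 0.21). Fibroblast markers thus lay almost all on one side, with 3 past the threshold without control 4. Mean levels were 13.23 to 13.62 in control and 13.26 to 13.63 in SF-infused hens for smooth muscle, 8.54 to 9.44 and 8.58 to 9.66 for erythrocytes and 11.95 to 12.92 and 12.15 to 13.33 for fibroblasts. Endothelial markers gave 1 lower of 20, ANGPT2 at -0.57 (SE 0.18), which kept its call. Of these 20, 17 lay below 0 (median -0.20), and 6 were lower without SF-infused hen 2. Columnar epithelium gave 2 higher of 20, AGR3 at 0.82 (SE 0.34) and KRT222 at 0.55 (SE 0.23), and 0 without control 1 or 2 or SF-infused hen 3 or 4. Egg white markers of the magnum gave 1 higher of 12, the riboflavin-binding protein (RBP, LOC396449 on the array) at 1.5 (SE 0.62), and striated muscle markers 2 higher and 4 lower of 19, with ACTN2 at -1.34 (SE 0.49), TRIM63 at 0.64 (SE 0.24) and MYH13 at 0.28 (SE 0.11). Of the striated markers 1 was lower without control 3 or SF-infused hen 2 or 3. RBP, ACTN2, TRIM63 and MYH13 each lost the call in at least 3 of the 8 leave-one-out fits. Their part in the results was not tested.

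Markers of male germ cells were included because the infused fluid came from semen. Of 32 measured members 8 were higher and 0 lower (median 0.12). Besides SPO11, RBM46 lay at 5.11, 5.42, 4.79 and 5.56 in control and at 5.73, 5.60, 6.11 and 5.70 in SF-infused hens, a difference of 0.57 (SE 0.19) that held in every leave-one-out fit, and TCTE3 was at 0.48 (SE 0.17), lost without control 1 or SF-infused hen 4. The germ cell marker DDX4 was at 3.38 ± 0.15 (SD, n = 4) in controls against 3.26 ± 0.12 (SD, n = 4) after SF-infusion and the acrosome gene SPACA1 at 3.05 ± 0.16 (SD, n = 4) in controls against 3.06 ± 0.19 (SD, n = 4) after SF-infusion, below the random control and not past the threshold. DAZL, of germ cells, was at 3.43 ± 0.29 (SD, n = 4) in controls against 3.96 ± 0.50 (SD, n = 4) after SF-infusion and SPAM1, the sperm hyaluronidase, at 3.16 ± 0.06 (SD, n = 4) in controls against 3.56 ± 0.33 (SD, n = 4) after SF-infusion, both among the 8 past the threshold although dim, and both kept their calls in only 2 of the 8 leave-one-out fits. These 4 genes were chosen after their values had been seen. The number higher was 3 without control 2 or SF-infused hen 3 and up to 7 with another array left out, and 2 without control 3 and SF-infused hen 3. The mean level of the list was 6.95, 7.07, 6.98 and 7.04 in control hens and 7.10, 7.05, 7.22 and 7.40 in SF-infused hens.

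**Figure D5:**
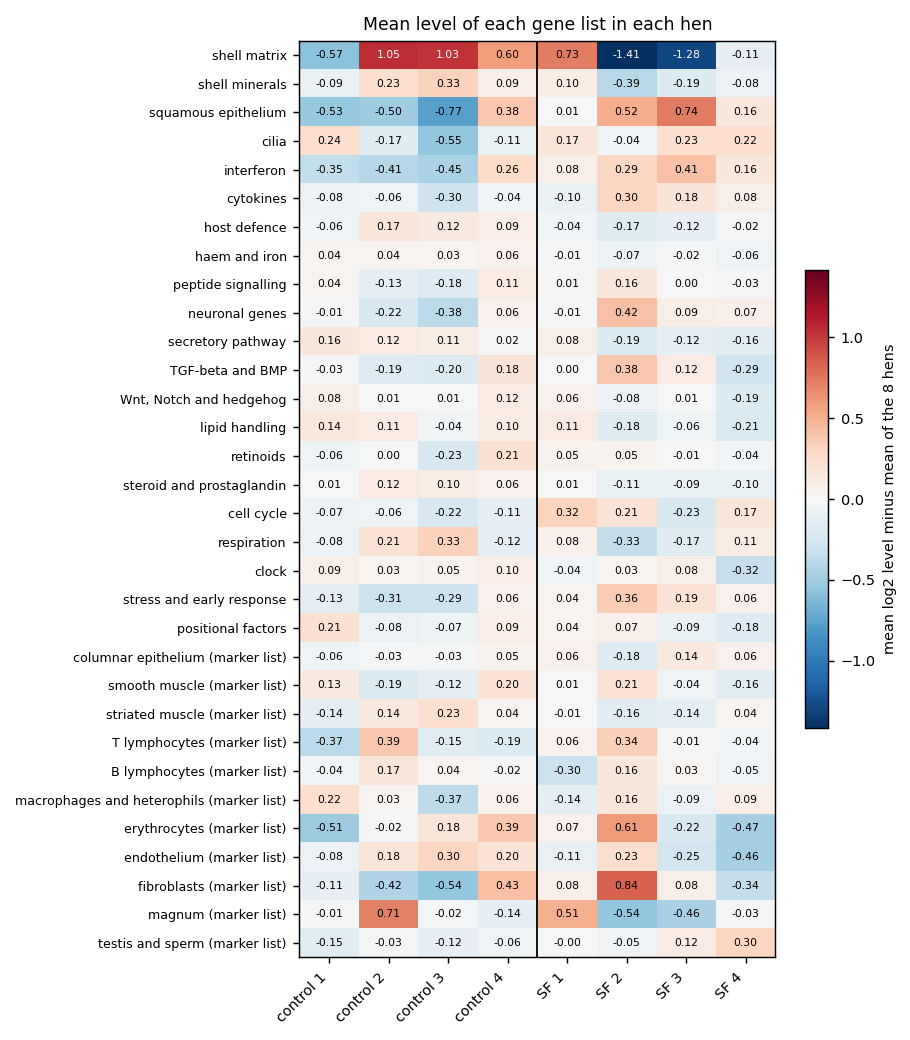
Mean log2 level of each gene list (rows) in each of the 8 hens (columns), relative to the mean of the 8 hens for that list. Shell matrix genes are below the mean in control 1 and SF-infused hens 2 to 4, squamous genes are above it in control 4, and secretory pathway genes are above it in SF-infused hen 1 as in the controls.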

How the data were processed

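UVJ RNA of 12 hens was hybridised to custom NimbleGen arrays in 1 colour. The intensity values deposited by the authors had been background-adjusted, quantile normalised between arrays and summarised per feature by RMA, and were on a linear scale. After this, the median intensity over features still ranged from 1077.0 to 1101.6 among the 12 arrays. A further deposited column gave the number of probes behind each feature. The genome build behind the array's design is not given in the sources used here. The values of the series table were identical to those of the single arrays, and 0 columns were left unmapped.

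Intensities were taken to log2 without a pseudocount. A linear model with a mean for each of the 3 groups was fitted with limma 3.58.1 in R 4.3.3 to all 12 arrays, with empirical Bayes moderation, two-sided tests and Benjamini-Hochberg adjustment over all 37374 features, after a test on simulated data. The number of arrays limits the precision. Each array is 1 hen, so that p sets the difference against the spread between hens. That spread was estimated over all 12 arrays, mated hens included, and moderated over features.

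Symbols came from the array's feature names, updated through RefSeq accessions, current symbols and synonyms. A gene of several features was represented in a list by its brightest feature. Named were the 12 genes with the largest difference and the 8 with the smallest p in each direction among those with separate groups past the unadjusted threshold, up to 3 genes with the smallest p in each of 33 gene lists, the NF-Y subunits and 3 features each of microRNAs and small nucleolar RNAs. Other named genes are marked in the text as chosen after their values had been seen. The members and lists were chosen with earlier results of these data known. A few genes falling under the rule were left out of the text. The alternatives were the 8 arrays alone, a block for the replicate number, filters on dim features, other normalisations, the series table, trended moderation, array weights and leaving out each array.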

Additional observations from a re-analysis of the deposited data

Results flagged for a closer look

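Hens that lay far from the other 3 of their group were looked for by Dixon's criterion at 95% over 314 groups of 4, for 157 genes and gene lists, and 15 groups had one. For a group drawn at random the criterion is exceeded in about 1 in 20 cases. The genes had been chosen largely by their values and the groups share hens, so that 15 of 314 cannot be set against that share.

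Among controls, replicate 4 lay at 11.16 for CALML3 against 7.15 to 7.51 in the others, at 9.89 for VGLL1 against 4.95 to 5.34, at 10.34 for GPR176 against 10.06 to 10.10, and at 11.06 for the mean level of the interferon list against 10.35 to 10.45. Replicate 1 lay at 6.10 for MEPE against 14.22 to 14.62, at 7.79 for GKN2 against 13.54 to 14.59 and at 12.17 for YIPF5 against 11.62 to 11.67. Replicate 2 lay at 11.28 for the mean level of the magnum list against 10.43 to 10.56, and replicate 3 at 7.74 for that of the cytokine list against 7.96 to 8.00.

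Among SF-infused hens, replicate 1 lay at 14.31 for MEPE against 6.0 to 6.32, at 10.13 for KIF7 against 10.53 to 10.61 and at 9.83 for the mean level of the steroid and prostaglandin list against 9.71 to 9.73. Replicate 2 lay at 8.67 for PCLO against 7.05 to 7.31 and at 9.51 for RBP5 against 8.95 to 9.01, and replicate 4 at 9.79 for SIK1 against 10.70 to 10.72.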

How the results depend on the processing

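The number of features past the unadjusted threshold was 2417 as reported. It was 1597 of 28030 features at or above the 25th percentile of signal, 1081 of 18687 at or above the median signal and 4064 with array weights. In the fit of only the 8 arrays compared it was 2998, 2034 of them higher, and the interferon list had 27 members higher in place of 2. With a replicate block it was 2649, of which 1972 were shared with the fit without the block. Correlations of the deviations of same-numbered hens were -0.112, -0.35, -0.297 and -0.344, and those of differently numbered hens ranged from -0.407 to 0.426. These values cannot show whether same-numbered hens share more than a number. Under the block the interferon list had 11 members higher in place of 2 and the secretory pathway 8 lower in place of 16. With 1 array left out it ranged from 1502 to 3505. Without control 3 and SF-infused hen 3, a setting chosen after seeing the data that removes the extremes of the squamous difference, it was 1282 (3.43%). After Benjamini-Hochberg adjustment limma called 0 features in each of these fits, and the smallest adjusted p ranged from 0.176 without SF-infused hen 1 to 0.978 without control 3 and SF-infused hen 3. Of 110 named features, 0 turned in direction under any alternative. Most had been named for a small p or separate groups in these same values, which left little room for a turn. Their kept direction is therefore no support. Of the 110, 103 kept their side of the threshold with the block, 106 with quantile normalisation, 78 without control 3, 78 without SF-infused hen 3 and 57 without both. Higher features made up 64.2% of the features past the threshold as reported and 54.9% after further quantile normalisation. The cause of these differences was not tested.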
